A study of Homo sapiens with 60 samples.

Results

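The mRNAs of 39 genes for DNA replication and S phase were followed in A549, a human lung carcinoma cell line in long use, 24 h after a herbal extract or vehicle was given. The genes were chosen by name, as a list of 39 symbols, and each symbol matched 1 of the 60675 gene identifiers in the count table. They fall into 8 roles: origin licensing (ORC1, ORC6, CDC6, CDT1 and MCM2 to MCM7), helicase activation (MCM10, CDC45 and GINS1 to GINS4), the clamp and its loader (PCNA and RFC2 to RFC5), polymerases and primase (POLA1, POLA2, PRIM1, POLD1, POLE and POLE2), flap removal and ligation (FEN1 and LIG1), deoxynucleotide supply (RRM1, RRM2, TYMS and TK1), S phase entry (CCNE1, CCNE2 and E2F1) and chromatin behind the fork (UHRF1, CHAF1A and CHAF1B).

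A cell copies its genome once per cycle. In G1, the origin recognition complex, CDC6 and CDT1 load the ring of MCM2 to MCM7 onto origins. At S phase entry, cyclin E with its kinase and the release of E2F factors switch on the genes of the replication machinery, and CDC45 and the GINS complex turn the MCM ring into an active helicase. PCNA then holds the polymerases on DNA, FEN1 and LIG1 finish the lagging strand, and ribonucleotide reductase, thymidylate synthase and thymidine kinase supply the building blocks, so that mRNAs of this set are commonly read as a sign of proliferation in cultured tumour cells.

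The study covered 60 libraries in 25 groups, of A549 cells given 1 of 8 extracts at a low, a medium or a high dose, or vehicle. Soshiho-tang and Yijin-tang are multi-herb decoctions and were given as water extracts at 20, 100 and 500 µg/mL, with 2 and 3 libraries per dose. Ethanol extracts of Zizyphi Semen, Longan Arillus, Schisandrae Fructus and Liriopis seu Ophiopogonis Tuber were given at the same doses, with 3 libraries per dose. The ethanol extracts with 1 library per dose were Polygalae Radix, at 15.2, 76 and 380 µg/mL, and Aucklandiae Radix, given at 14.8, 74 and 370 µg/mL, and the design text sets such lower doses at the IC20 and at fixed dilutions of it. Vehicle had 3 libraries, and its DMSO content is 0.1% in the labels and 2% in the design text. All groups were the same line, with no genetic change named. Library names in the labels begin with a number or code, here called the set, whose meaning the labels do not give. The decoctions are set 8, Longan Arillus with Zizyphi Semen set 10, and Schisandrae Fructus with Liriopis seu Ophiopogonis Tuber set 9. The extracts without replicates are set 11. Vehicle libraries were in a set of their own (C1), so set and treatment cannot be told apart in any comparison with vehicle. Whether replicates came from separate cultures is not given in the labels, so p-values here reflect only how libraries of a group vary, which may be technical. Bulk RNA cannot tell fewer cells in S phase from less RNA per cell.

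Levels are given as CPM, the read counts of a gene scaled to a common library total with TMM factors. Fold changes are log2 values with their SE from edgeR's quasi-likelihood test over 17646 genes, and called means an adjusted p (Benjamini-Hochberg, over all genes tested) below 0.05. Library totals ranged from 18.003 to 33.832 M counts, and all 39 genes passed the filter on low counts. Of the 7 epithelial and A549 markers, KRT7, KRT8, KRT18, AKR1B10 and ALDH1A1 averaged 2080 to 6400 CPM in vehicle, and KRT19 and CDH1 27.6 and 34.0 CPM. Of the leukocyte genes, CD3E was at 0 in vehicle and PTPRC at 0.0114 CPM, but CD68 averaged 12.3 CPM and ITGAM 1.39 CPM. Of the endothelial genes, KDR was at 0 in vehicle and the highest, CDH5, at 0.109 CPM. COL1A1, at 29.5 CPM, carried most of the fibroblast sum. Among the libraries, 2 stood apart in transcript length, Longan Arillus low replicate 3 and Soshiho-tang medium replicate 3, with slopes of log2 ratio on log2 transcript length of -0.45 and -0.40, against -0.09 to 0.08 in the others. The tests therefore used 51 libraries without both, and without the lone remaining Soshiho-tang medium library, and the counts from all 54 replicated libraries are given beside the results they change.

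In vehicle cells the replication genes were abundant. Per kilobase of exon, their median level was 16.9 CPM per kb, against 2.76 CPM per kb over the 17524 genes tested with a known length. PCNA, the sliding clamp, was highest at 174 ± 1.61 CPM per kb (SD, n = 3), followed by TK1, the salvage kinase for thymidine, at 75.9 ± 2.06 and MCM7 at 70.5 ± 1.43 CPM per kb. The 6 subunits of the MCM ring spanned 17.9 ± 0.56 CPM per kb for MCM5 to 70.5 for MCM7, although their proteins form a ring with 1 copy of each. The length used is that of all annotated exons of a gene merged, 7.338 kb for MCM5 and 4.386 kb for MCM7. Ranks per kb therefore depend on the annotation too. In plain CPM the lowest of the 6 was MCM2 (116.6), with MCM5 at 131.5 and MCM7 still highest at 309.4. RRM2, the regulated small subunit of ribonucleotide reductase, stood at 56.1 ± 1.36 and its partner RRM1 at 46.7 ± 0.71 CPM per kb. The lowest were CCNE2, the second cyclin E, at 1.85 ± 0.12 CPM per kb, and below 5 CPM per kb also POLE2 (4.94 ± 0.16) and GINS3 (4.96 ± 0.14), which do not differ from each other beyond their spread. CCNE1 was at 10.5 ± 0.15 CPM per kb, well above CCNE2.

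**Figure D1:**
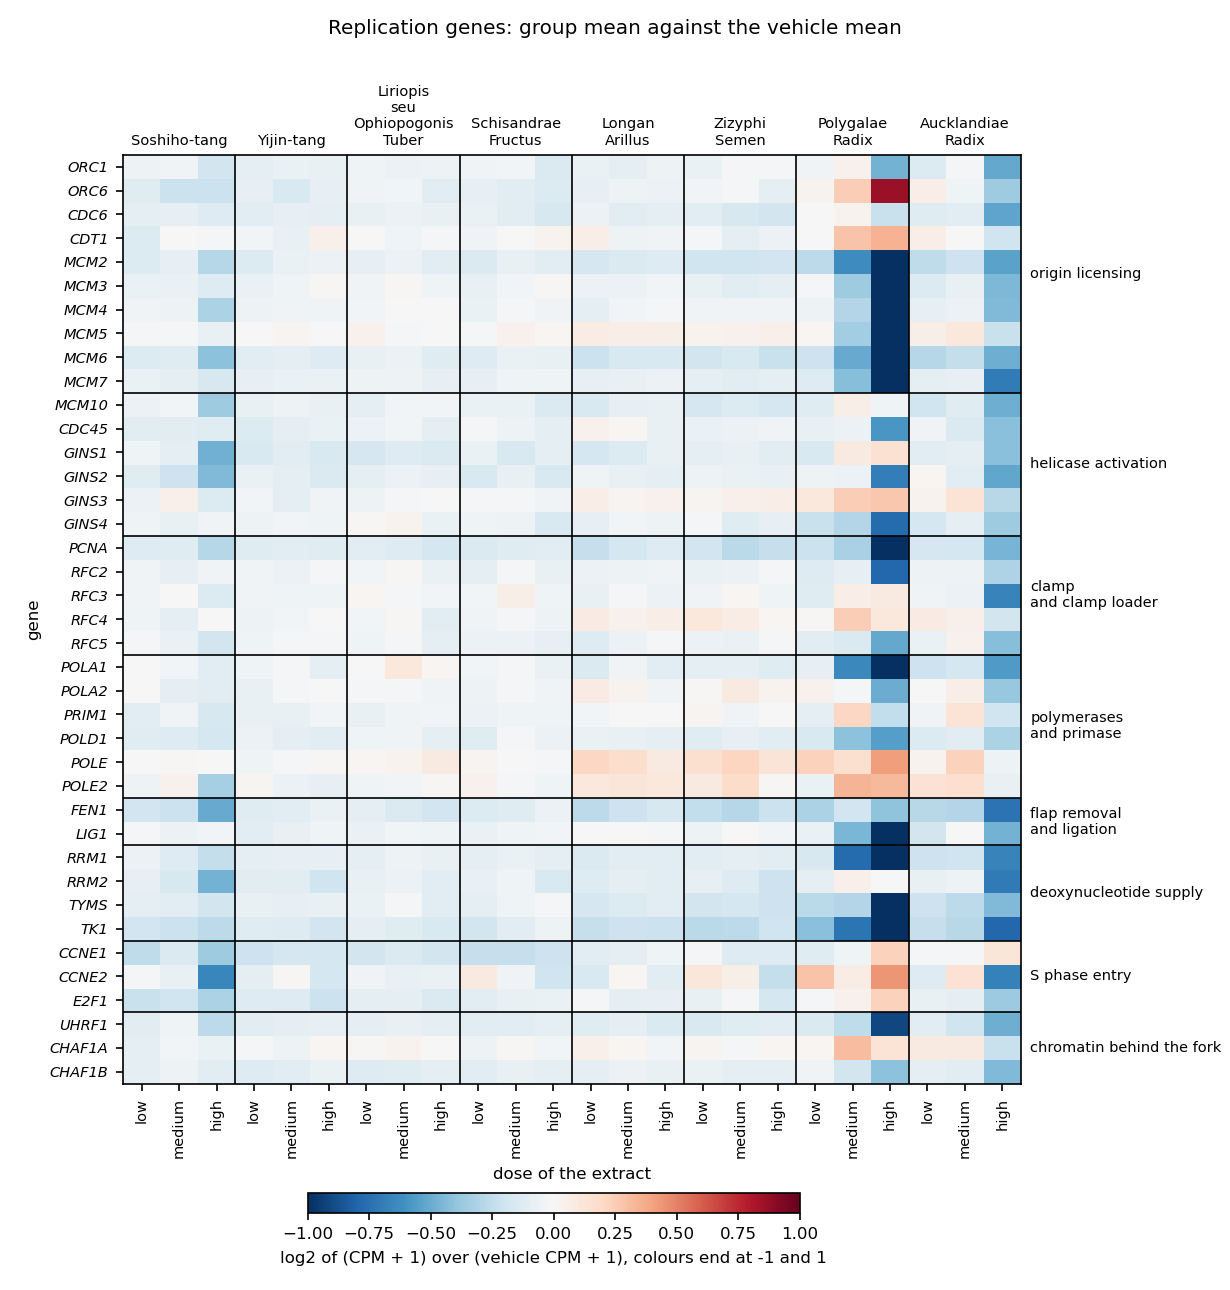
Heat map of the 39 genes (rows, by role) in the 24 extract groups (columns, doses low to high within each extract), coloured by log2 of the group's mean CPM over the vehicle mean, with 1 CPM added to both and the 2 libraries that stand apart left out. The strong blue columns are the high doses of Polygalae Radix, where MCM2 to MCM7 reached -1.17 to -1.92, and of Aucklandiae Radix, and a paler one is the high dose of Soshiho-tang.

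**Figure D2:**
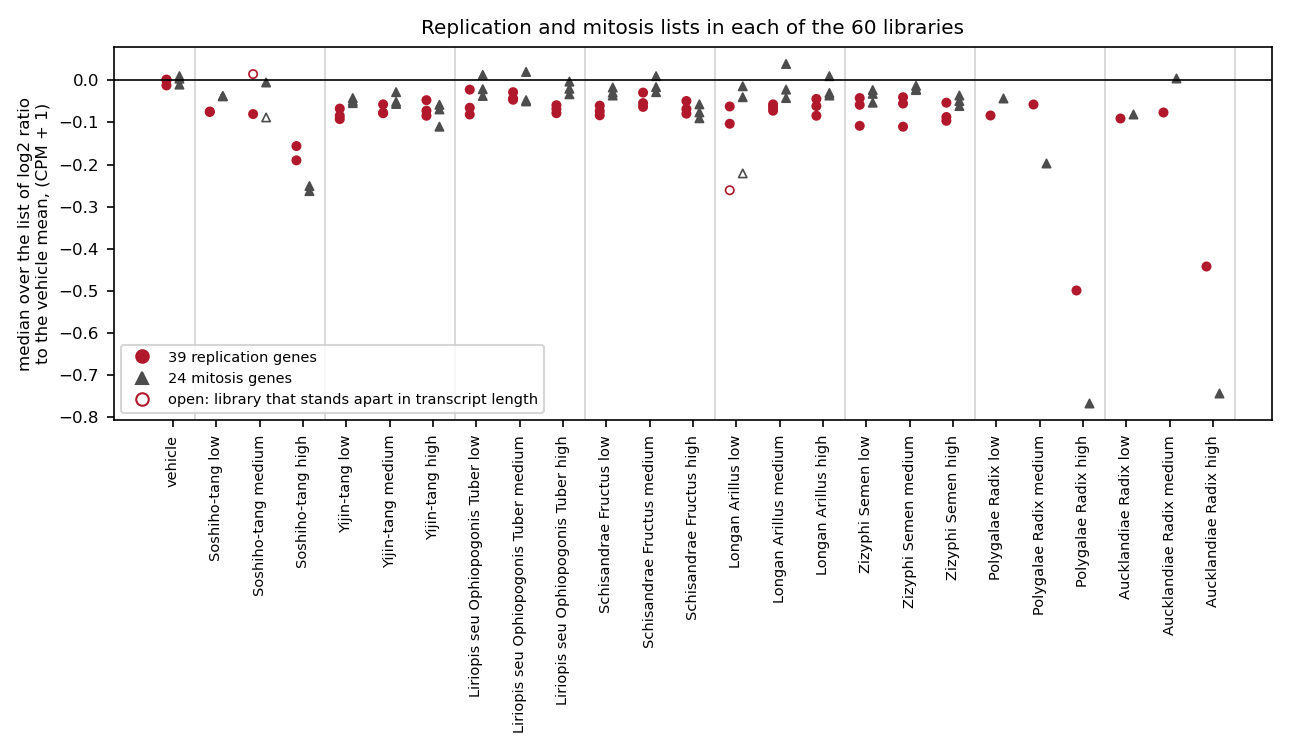
Median log2 ratio to the vehicle mean over the 39 replication genes (circles) and over 24 mitosis genes (triangles) in each of the 60 libraries, by group, with vehicle first and doses low to high. Replication medians lay at -0.19 and -0.16 in the Soshiho-tang high libraries, -0.50 in Polygalae Radix high and -0.44 in Aucklandiae Radix high, and between -0.11 and 0.02 in all others except Longan Arillus low replicate 3 (-0.26), drawn open with Soshiho-tang medium replicate 3.

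Part of the replication set was lower in Soshiho-tang at the high dose. Against the low dose of the same extract, 12 of the 39 genes were called lower and 0 higher, beside 4.69% of all genes called lower and 5.31% called higher. The median log2 fold change was -0.10 over the 39 genes and 0.00 over all genes, and 34 of 39 lay below 0. The 2 high-dose libraries lay below both low-dose libraries for 23 of the 39 genes, against 25.6% of all genes. The called genes came from 7 of the 8 roles: MCM4 and MCM6, MCM10, GINS1 and GINS2, PCNA and RFC5, POLE2, FEN1, RRM1 and RRM2, and CCNE2. With all 54 libraries in the fit, 3 of the 39 were called lower (RRM2, GINS1 and CCNE2), beside 0.404% of all genes.

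CCNE2, the cyclin that activates CDK2 at S phase entry, had 4.86 and 4.81 CPM in Soshiho-tang high, against 8.13 and 8.05 CPM in Soshiho-tang low. Its high-dose libraries also lay below every vehicle library (8.75, 7.84 and 7.85 CPM), and the log2 fold change of high over low was -0.74 ± 0.16 (edgeR adjusted p = 0.00116). CCNE2 is the least abundant of the 39, so its relative counting error is the largest among them, and it overlaps INTS8 on the other strand, whose own log2 fold change was -0.20. CCNE1 had 20.5 and 20.85 CPM in Soshiho-tang high, against 22.4 and 22.1 CPM in Soshiho-tang low, and was not called (-0.11 ± 0.08). E2F1, the transcription factor whose targets include much of this set, had 36.1 and 40.7 CPM in Soshiho-tang high, against 38.9 and 43.6 CPM in Soshiho-tang low. Its groups overlapped, and it was not called.

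RRM2, which supplies deoxynucleotides as the limiting subunit of ribonucleotide reductase, had 214 and 217 CPM in Soshiho-tang high, against 289 and 276 CPM in Soshiho-tang low. Both high-dose libraries were far below the low-dose ones, with a log2 fold change of -0.39 ± 0.04 (edgeR adjusted p = 3.22e-11). RRM1, the large subunit, had 164.5 and 166 CPM in Soshiho-tang high, against 187 and 189 CPM in Soshiho-tang low (-0.18 ± 0.03, edgeR adjusted p = 0.000154). TYMS and TK1, which make and salvage thymidylate, were not called (-0.10 ± 0.05 and -0.07 ± 0.05).

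Of the helicase activators, GINS1 had 51.8 and 54.5 CPM in Soshiho-tang high, against 76.0 and 68.45 CPM in Soshiho-tang low. The groups did not overlap, and its log2 fold change was -0.44 ± 0.07 (edgeR adjusted p = 1e-05). GINS2 had 37.9 and 35.9 CPM in Soshiho-tang high, against 45.9 and 46.3 CPM in Soshiho-tang low (-0.32 ± 0.06, edgeR adjusted p = 0.000134). MCM10, which helps start the helicase, was called too (-0.30 ± 0.05). GINS3, GINS4 and CDC45, the partners of GINS1 and GINS2 in the same helicase, were at -0.08, 0.00 and -0.01 and not called.

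Within the MCM ring, MCM4 and MCM6 were called with the same log2 fold change of -0.28, with SEs of 0.04 and 0.05. MCM6 had 112 and 120.5 CPM in Soshiho-tang high, against 138 and 143 CPM in Soshiho-tang low, without overlap. MCM2 stood at -0.15 ± 0.05 (edgeR adjusted p = 0.0629), and MCM3, MCM5 and MCM7 between -0.06 and -0.10, none called. MCM7, the most abundant gene of the licensing group, had 275 and 278 CPM in Soshiho-tang high, against 292 and 300.5 CPM in Soshiho-tang low. CDT1, the licensing factor destroyed in S phase, had the highest value of the 39 at 0.12 ± 0.06 and was not called either.

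FEN1, the nuclease that trims Okazaki fragment flaps, had 70.0 and 78.3 CPM in Soshiho-tang high, against 91.2 and 93.3 CPM in Soshiho-tang low. Its log2 fold change was -0.32 ± 0.05 (edgeR adjusted p = 1.19e-06), while LIG1, which seals the same fragments, was at -0.01 ± 0.05. FEN1 overlaps FADS2 on the same strand, a more abundant gene whose log2 fold change was 0.38, opposite in sign. PCNA had 201 and 219 CPM in Soshiho-tang high, against 238 and 229.5 CPM in Soshiho-tang low (-0.15 ± 0.05, edgeR adjusted p = 0.0318). Of its loader, RFC5 was called at -0.17 ± 0.05, and RFC2, RFC3 and RFC4 were not.

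Among the polymerases, POLE2, the second subunit of polymerase epsilon, had 11.4 and 11.3 CPM in Soshiho-tang high, against 14.2 and 13.95 CPM in Soshiho-tang low (-0.31 ± 0.10, edgeR adjusted p = 0.0355). POLE, the catalytic subunit of the same enzyme, had 167 and 158 CPM in Soshiho-tang high, against 151 and 174 CPM in Soshiho-tang low. These overlapped, at a log2 fold change of 0.00 ± 0.06. POLA1, POLA2, PRIM1 and POLD1 ranged from -0.06 to -0.11 and were not called. UHRF1, which carries DNA methylation across the fork, had 78.2 and 72.9 CPM in Soshiho-tang high, against 83.2 and 85.1 CPM in Soshiho-tang low and missed the threshold (-0.16 ± 0.05, edgeR adjusted p = 0.0625). The histone chaperone subunits CHAF1A and CHAF1B stood at 0.02 and -0.01.

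**Figure D3:**
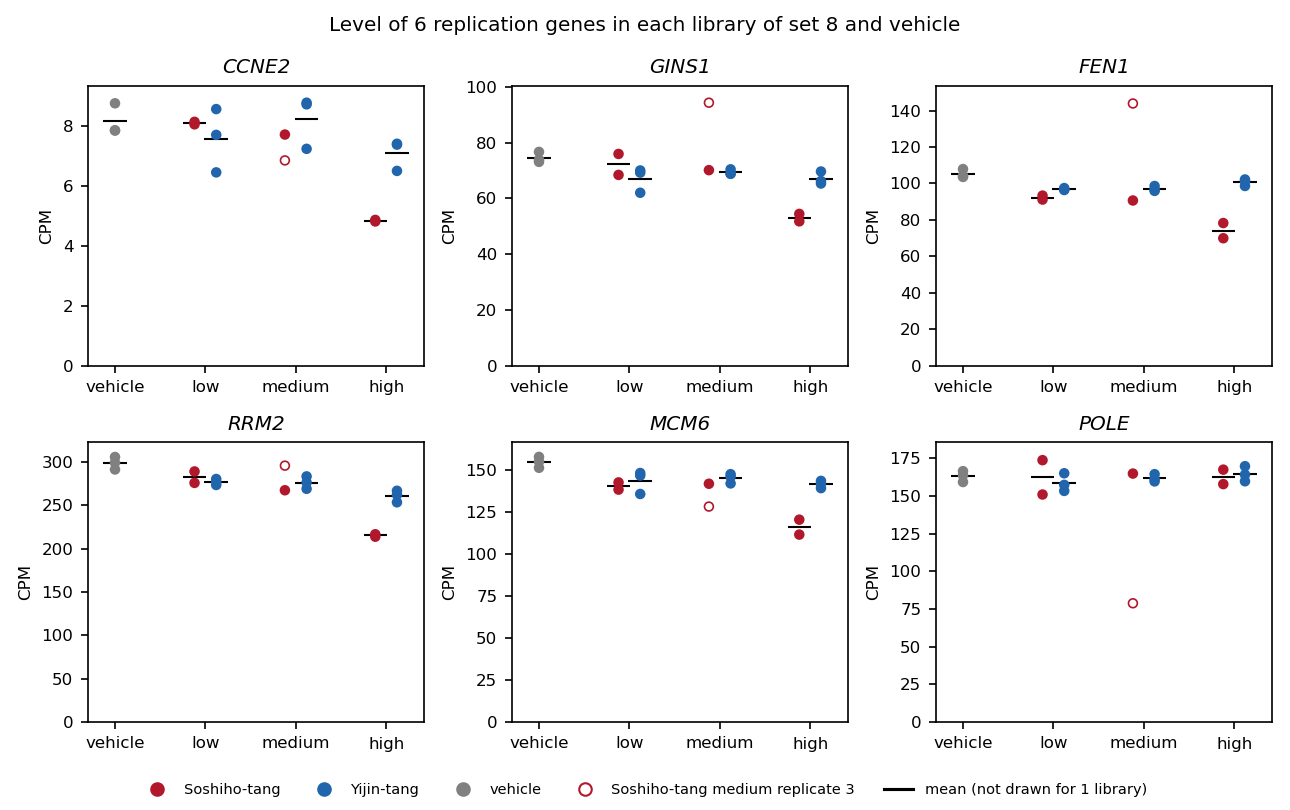
CPM of 6 replication genes (panels, axes from 0) in each library of vehicle and of Soshiho-tang and Yijin-tang at the low, medium and high dose, with group means as bars. In Soshiho-tang high, CCNE2 (4.86 and 4.81 CPM), GINS1, FEN1, RRM2 and MCM6 lay below all libraries of the other groups shown, while POLE did not, and the open circle is Soshiho-tang medium replicate 3.

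At the medium dose, with replicate 2 alone beside the library that stands apart, no test was made. In that replicate CCNE2 had 7.705 CPM, RRM2 267 CPM, GINS1 70.2 CPM, FEN1 90.7 CPM and MCM6 142 CPM, each far nearer to the low dose than to the high dose.

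The promoters of the genes that moved together are shown with the letters of E2F sites, since E2F factors drive much of this set. RefSeq windows of 300 bases, the last 50 of them after the start site (build GRCh38.p14), were at hand for 35 of the 39 genes. Those without a window were MCM4, MCM5, GINS4 and CCNE2. CCNE2, the gene of largest fall, and MCM4 are therefore missing from the counts below, although both were called lower in Soshiho-tang high against vehicle. The letters searched on both strands were TTTCCCGC, TTTGGCGC, TTTCGCGC and TTTGCCGC for E2F, and CCAAT. Sense and antisense E2F matches can share their GCGC letters. Of the 45 windows of these genes, 44.4% held an E2F match, against 3.31% of all 35116 windows, and 60% held CCAAT, against 34.61% of all. Genes called lower in Soshiho-tang high against vehicle held an E2F match in 12 of 23 cases and the others in 7 of 12. CCAAT was present in 16 of the 23 and in 3 of the 12. A match is only a run of letters and not a shown site. The windows of RRM2, CCNE1 and MCM10, also called lower in Soshiho-tang high against vehicle, held no E2F match and are not printed below. Those of RRM2 and MCM10 held CCAAT.

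The windows below are 5′ to 3′ on the strand of the gene, with E2F and CCAAT letters in capitals on either strand, for MCM6 (chr2:135876394-135876693, minus strand, 4 E2F matches), GINS1 (chr20:25407423-25407722, plus strand, 1 match), GINS2 (chr16:85688905-85689204, minus strand, 1 match) and POLE2 (chr14:49688165-49688464, minus strand, 1 match), and for FEN1 (chr11:61792661-61792960, plus strand), which moved with them and holds neither run.
MCM6: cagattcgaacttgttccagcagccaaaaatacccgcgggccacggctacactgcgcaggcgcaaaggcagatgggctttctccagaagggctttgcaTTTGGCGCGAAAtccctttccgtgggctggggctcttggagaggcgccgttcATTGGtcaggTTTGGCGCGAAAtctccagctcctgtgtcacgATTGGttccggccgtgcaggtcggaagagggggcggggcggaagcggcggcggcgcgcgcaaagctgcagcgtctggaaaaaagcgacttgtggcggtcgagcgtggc
GINS1: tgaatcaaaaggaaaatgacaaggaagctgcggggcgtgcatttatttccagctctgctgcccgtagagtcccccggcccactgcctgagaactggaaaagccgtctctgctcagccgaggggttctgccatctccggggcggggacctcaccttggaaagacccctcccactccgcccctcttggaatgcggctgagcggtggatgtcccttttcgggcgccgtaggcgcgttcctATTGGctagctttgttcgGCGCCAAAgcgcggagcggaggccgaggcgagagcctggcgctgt
GINS2: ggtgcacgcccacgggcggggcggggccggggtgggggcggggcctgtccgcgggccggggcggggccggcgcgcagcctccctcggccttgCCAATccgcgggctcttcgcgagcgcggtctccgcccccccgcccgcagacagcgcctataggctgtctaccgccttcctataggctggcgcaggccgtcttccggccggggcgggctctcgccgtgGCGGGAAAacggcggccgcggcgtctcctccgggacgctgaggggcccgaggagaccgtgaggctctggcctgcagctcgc
POLE2: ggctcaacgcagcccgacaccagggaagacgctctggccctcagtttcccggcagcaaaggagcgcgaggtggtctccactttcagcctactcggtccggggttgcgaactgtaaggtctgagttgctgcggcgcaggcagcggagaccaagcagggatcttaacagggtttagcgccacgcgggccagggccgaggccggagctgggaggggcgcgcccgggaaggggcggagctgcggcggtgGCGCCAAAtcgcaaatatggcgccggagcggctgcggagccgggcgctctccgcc
FEN1: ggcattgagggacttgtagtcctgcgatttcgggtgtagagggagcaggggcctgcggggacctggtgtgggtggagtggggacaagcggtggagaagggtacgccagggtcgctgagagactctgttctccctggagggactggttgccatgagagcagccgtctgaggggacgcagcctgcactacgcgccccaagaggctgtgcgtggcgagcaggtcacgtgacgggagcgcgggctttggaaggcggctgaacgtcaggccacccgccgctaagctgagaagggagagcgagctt
Counted from the start site, the E2F letters of MCM6 form 2 overlapping pairs whose first bases are at -152 and -90. In GINS2 they begin at -31 and in POLE2 at -5, and in GINS1 at 5, just inside the transcript.

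Against vehicle, the high dose of Soshiho-tang had 25 of the 39 genes called lower and 0 higher, beside 11.7% of all genes lower and 10.7% higher, and the median was -0.18 against 0.00 over all genes. All 39 log2 fold changes were at or below 0. The count was 11 with all 54 libraries, beside 2.05% of all genes. The largest falls were in CCNE2 (-0.75 ± 0.15), FEN1 (-0.51 ± 0.04, edgeR adjusted p = 1.7e-13), GINS1 (-0.49 ± 0.06), RRM2 (-0.47 ± 0.03, adjusted p = 3.77e-15) and GINS2 (-0.45 ± 0.05). FEN1 had 70.0 and 78.3 CPM in Soshiho-tang high, against 104, 104 and 108 CPM in vehicle. RRM2 had 214 and 217 CPM in Soshiho-tang high, against 299, 306 and 291 CPM in vehicle. Neither gene's groups overlapped, which held, in the lower direction, for 31 of the 39 genes and 4501 of all 17646 genes. In vehicle GINS1 had 73.9, 76.7 and 73.1 CPM and GINS2 51.01, 51.3 and 48.8 CPM, all above the Soshiho-tang high libraries given above. The mitochondrial share of counts was 14.2% and 14.4% in Soshiho-tang high, against 11.5% to 11.8% in vehicle (13.3% and 14.3% in Soshiho-tang low), and its part in the result was not tested.

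By role, the comparison with vehicle called all 4 deoxynucleotide genes (TYMS -0.19 ± 0.05, TK1 -0.26 ± 0.05) and all 3 genes of S phase entry (CCNE1 -0.37 ± 0.07, E2F1 -0.33 ± 0.07). It called 8 of the 10 licensing genes, with MCM6 at -0.42 ± 0.04 and MCM2 at -0.29 ± 0.05, and not MCM5 (-0.08 ± 0.04) or CDT1 (-0.02 ± 0.05). Among the rest were 3 of 6 helicase activators, 2 of 5 clamp genes (PCNA -0.28 ± 0.04), POLE2, POLD1 and PRIM1 of the 6 polymerase genes, FEN1 and UHRF1. RFC4, POLE and LIG1 lay between -0.03 and 0.00.

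Part of the difference from vehicle was present at the low dose already. Soshiho-tang low had 4 genes called lower than vehicle (CCNE1, FEN1, TK1 and E2F1) and 0 higher, beside 2.29% of all genes called lower and 0.997% higher, and all 39 were at or below 0 with a median of -0.07. TK1 had 119 and 128 CPM in Soshiho-tang low, against 138, 140.5 and 145 CPM in vehicle, and E2F1 38.9 and 43.6 CPM in Soshiho-tang low, against 48.95, 48.2 and 47.3 CPM in vehicle. Leaving out Soshiho-tang low replicate 2 gave 0 calls, leaving out Soshiho-tang low replicate 3 or vehicle replicate 2 or 3 gave 2, and all 54 libraries gave 0, beside 0.028% of all genes.

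Yijin-tang, the other decoction of set 8, gave a direct comparison within the set. At the high dose 15 of the 39 genes were lower in Soshiho-tang than in Yijin-tang and 0 higher, beside 4.02% and 4.74% of all genes. FEN1 had 70.0 and 78.3 CPM in Soshiho-tang high, against 101, 102 and 98.6 CPM in Yijin-tang high (-0.44 ± 0.04, edgeR adjusted p = 3.51e-11), and CCNE2 4.86 and 4.81 CPM in Soshiho-tang high, against 6.49, 7.37 and 7.398 CPM in Yijin-tang high (-0.55 ± 0.15, edgeR adjusted p = 0.0156). The change with dose itself, high minus low, differed between the decoctions for 7 genes, all lower in Soshiho-tang, beside 1.01% of all genes lower and 1.71% higher. These were GINS1 (difference -0.44 ± 0.09), FEN1 (-0.37 ± 0.06), RRM2 (-0.31 ± 0.05), MCM10 (-0.29 ± 0.07), MCM4 (-0.28 ± 0.05), MCM6 (-0.25 ± 0.06) and RRM1 (-0.19 ± 0.04), with edgeR adjusted p-values of 2.13e-05 to 0.0073. Both counts were 0 with all 54 libraries, beside 0.325% and 0.028% of all genes called lower.

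**Figure D4:**
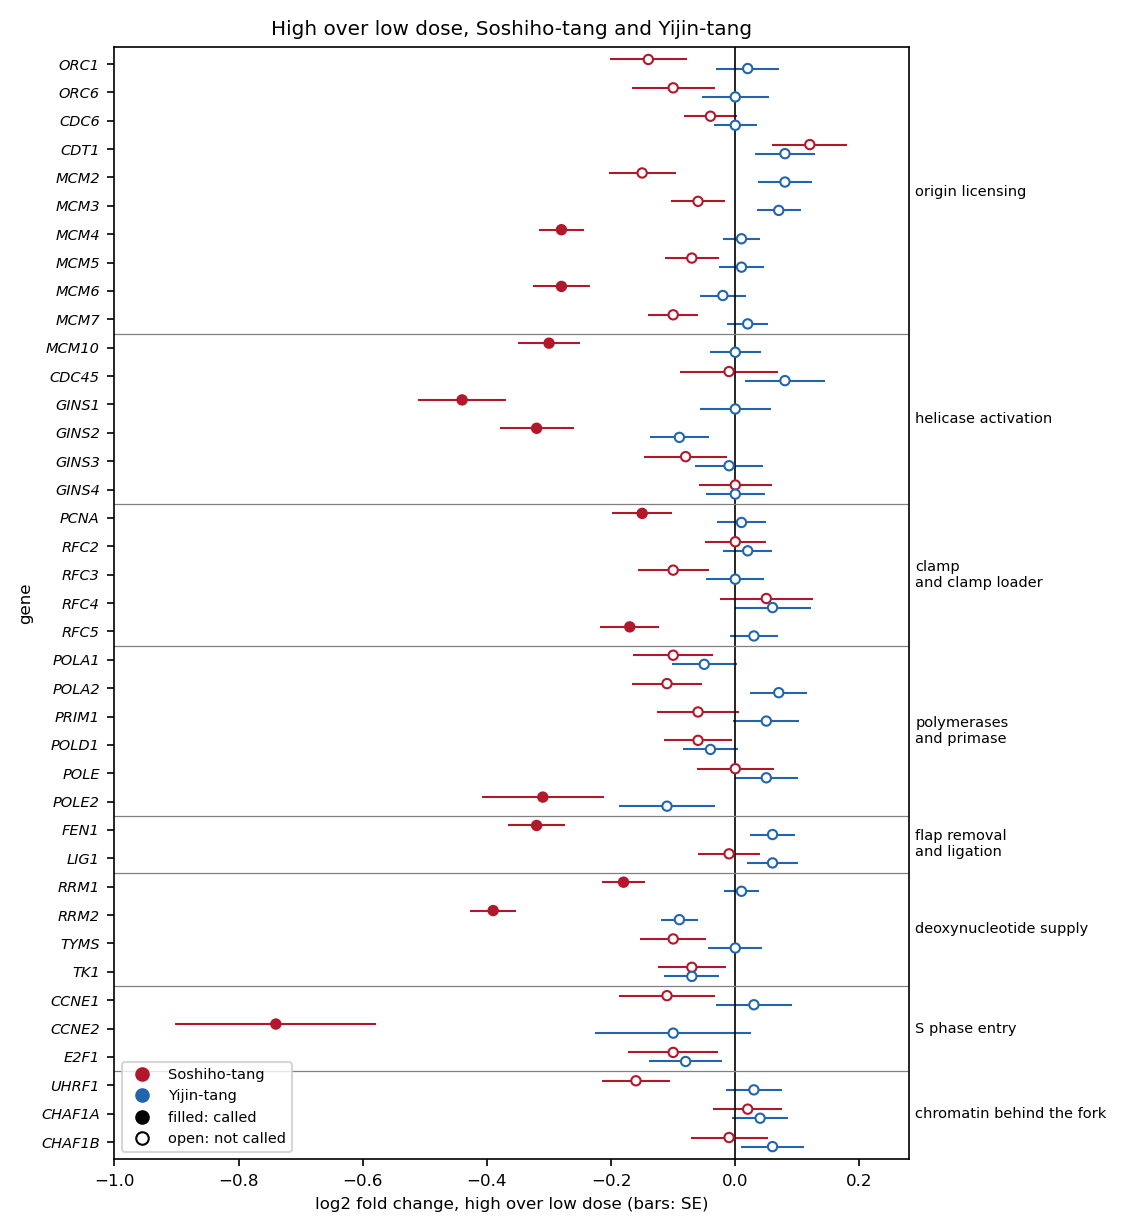
Log2 fold change of high over low dose (x axis, bars are SEs) for the 39 genes by role (y axis), in Soshiho-tang and Yijin-tang. Filled points are called. The 12 called genes are all of Soshiho-tang, with CCNE2 farthest at -0.74, and all Yijin-tang points lie between -0.11 and 0.08.

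The other genes of replication and of the cycle were also counted. Of 48 further S phase genes, Soshiho-tang high had 14 lower and 0 higher than the low dose and 22 lower than vehicle, where 4.69% and 11.7% of all genes were lower. They were led against the low dose by E2F8, an E2F family repressor (-0.53 ± 0.09), CCNA2, the S and G2 cyclin (-0.38 ± 0.05), and EXO1, an exonuclease of repair (-0.33 ± 0.06). Of 24 mitosis genes, 17 were lower than at the low dose and 18 lower than vehicle, with a median of -0.23 against the low dose, and of -0.10 for the further S phase genes. With all 54 libraries the S phase counts were 2 and 4 and the mitosis counts 4 and 4, beside 0.404% and 2.05% of all genes. AURKA and KIF20A, a spindle kinase and a kinesin of cytokinesis, both fell by 0.39 on the log2 scale. Of 8 tested G1 regulators, 3 were lower and 1 higher in each comparison, and the higher one against the low dose was CDKN1A, the p21 inhibitor (0.32 ± 0.06, edgeR adjusted p = 5.17e-05). CDKN2C, the p18 inhibitor, fell by 0.52 on the log2 scale and CCND3, a D cyclin, by 0.29. The G1 counts with all 54 libraries were 1 lower against the low dose and 2 lower against vehicle, with 1 higher in each. Beside these counts, the fibroblast marker sum was 30.6 and 27.3 CPM in Soshiho-tang high, against 37.8 and 37.1 CPM in Soshiho-tang low, and its part in the results was not tested. The leukocyte sum was 16.9 and 17.0 CPM in Soshiho-tang high, against 16 and 13.6 CPM in Soshiho-tang low.

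Within the other 5 replicated extracts 1 call was made between the high and the low dose. In high against low, edgeR called 0 of 39 for Yijin-tang (0.533% of all genes were called lower and 0.493% higher), Liriopis seu Ophiopogonis Tuber (0% and 0%), Schisandrae Fructus (0.669% and 0.946%) and Longan Arillus (0.0793% and 0.0113%). DESeq2 gave 0 in each too, and 2, 1, 8 and 6 of the 39 had an unadjusted p below 0.05. Zizyphi Semen had 1 gene lower, RRM2, beside 0.725% of all genes lower and 0.453% higher. RRM2 had 265, 261 and 252 CPM in Zizyphi Semen high, against 289, 276 and 282 CPM in Zizyphi Semen low, without overlap (-0.12 ± 0.03, edgeR adjusted p = 0.0234). This single call ended without any 1 of Zizyphi Semen high replicates 2 and 3 and low replicates 1 and 3 (adjusted p of 0.0724 to 0.231), with no filter on low counts (0.178) and with all 54 libraries (1.0, where 0.0168% of all genes were called lower), while DESeq2 called it (0.0068). Without Zizyphi Semen high replicate 1 the count was 2.

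The level of RRM2 in Yijin-tang was 262, 267 and 253.5 CPM at the high dose, against 273.5, 277 and 280.4 CPM at the low dose, which did not overlap but was not called (-0.09 ± 0.03, edgeR adjusted p = 0.233). Medium against low called 0 of 39 in Yijin-tang, Zizyphi Semen, Longan Arillus, Schisandrae Fructus and Liriopis seu Ophiopogonis Tuber by edgeR and by DESeq2, with 0, 1, 1, 1 and 0 of the 39 at an unadjusted p below 0.05, and at most 0.00567% of all genes were called. With all 54 libraries, Longan Arillus gave 4 higher and 4 lower in high against low (3.79% and 15% of all genes) and 5 higher and 4 lower in medium against low (3.36% and 14.7%). That fit includes Longan Arillus low replicate 3, which stands apart. The extracts of set 9 differed at the high dose in 1 gene, FEN1, beside 1.85% of all genes called higher and 1.31% lower. It had 102, 101 and 100.5 CPM in Schisandrae Fructus high, against 91.9, 95.3 and 89.5 CPM in Liriopis seu Ophiopogonis Tuber high (0.13 ± 0.04, edgeR adjusted p = 0.0322), and the call ended when any 1 of 5 of these 6 libraries was left out, the exception being Liriopis seu Ophiopogonis Tuber high replicate 2, and with all 54 libraries (0.0505% of all genes called higher). Zizyphi Semen against Longan Arillus at the high dose gave 0 by edgeR and by DESeq2, with 5 of the 39 at an unadjusted p below 0.05, beside 0.289% of all genes lower and 0.459% higher. The change from low to high differed in 0 of 39 genes between Schisandrae Fructus and Liriopis seu Ophiopogonis Tuber (0.13% of all genes lower, 0.204% higher) and between Zizyphi Semen and Longan Arillus (0.0567% and 0.085%), with 3 and 5 of the 39 at an unadjusted p below 0.05 and 0 called by DESeq2.

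Against vehicle, the high doses of these 5 extracts had some replication genes called lower and none higher by edgeR. The counts were 7 of 39 for Yijin-tang (4.35% of all genes called lower and 3.19% higher), 6 for Liriopis seu Ophiopogonis Tuber (4.85% and 2.74%), 8 for Schisandrae Fructus (5.19% and 4.39%), 8 for Longan Arillus (8.61% and 5.76%) and 13 for Zizyphi Semen (13.4% and 9.65%). The medians were small, from -0.09 in Zizyphi Semen to -0.06 in Longan Arillus, and 32 to 36 of the 39 genes lay below 0 in each. All of these comparisons share the 3 vehicle libraries, so the same genes recurring in them is no separate evidence. RRM2 was called in all 6 high doses, Soshiho-tang included, MCM6, PCNA and TK1 in 5, and CCNE1, FEN1 and RRM1 in 4. With all 54 libraries in the fit, none of the 5 extracts had one of the 39 called, beside 0.258%, 0.202%, 0.415%, 0.488% and 1.82% of all genes called lower. The mitochondrial share of counts was 15.4% to 16.8% in Zizyphi Semen high, 14.1% to 15.4% in Longan Arillus high, 13.02% to 15.9% in Liriopis seu Ophiopogonis Tuber high, 12.4% to 13.4% in Schisandrae Fructus high and 11.0% to 13.6% in Yijin-tang high, against 11.5% to 11.8% in vehicle, and its part in these counts was not tested.

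TK1, for example, had 122, 121 and 122 CPM in Longan Arillus high, 122.5, 125 and 121 CPM in Zizyphi Semen high, 125, 122 and 124 CPM in Yijin-tang high and 131, 129 and 121 CPM in the high dose of Liriopis seu Ophiopogonis Tuber, against 138, 140.5 and 145 CPM in vehicle. Each of these 4 groups lay below vehicle without overlap, with log2 fold changes of -0.15 to -0.22. Of all 17646 genes, 2589 lay lower without overlap in Longan Arillus high, 4046 in Zizyphi Semen high and 2617 in Yijin-tang high. The number was 2742 in Liriopis seu Ophiopogonis Tuber high and 2634 in Schisandrae Fructus high. Of the 39 genes, it was 15, 21, 19, 17 and 16 in the same order. The genes named were picked as called from the same values, so lack of overlap is no separate evidence. PCNA had 223, 209 and 221 CPM in Zizyphi Semen high, against 254, 255 and 259 CPM in vehicle (-0.23 ± 0.04, edgeR adjusted p = 2.19e-05). E2F1 had 42.3, 40.85 and 41.1 CPM in Yijin-tang high, against 48.95, 48.2 and 47.3 CPM in vehicle (-0.22 ± 0.06, edgeR adjusted p = 0.012). CCNE1 had 23.6, 21.6 and 24.1 CPM in Schisandrae Fructus high, against 26.55, 27.2 and 26.55 CPM in vehicle (-0.21 ± 0.06, edgeR adjusted p = 0.0122). In the same extract CDC6, the loader of the MCM ring, had 106, 101 and 104 CPM at the high dose, against 117, 116 and 114 CPM in vehicle (-0.16 ± 0.03).

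FEN1 was called lower than vehicle in 4 of the 6 extracts. It had 93.1, 90.7 and 87.9 CPM in Zizyphi Semen high, 94.97, 93.5 and 93.2 CPM in Longan Arillus high and 91.9, 95.3 and 89.5 CPM in Liriopis seu Ophiopogonis Tuber high, against 104, 104 and 108 CPM in vehicle. All of these libraries lay below vehicle and all above Soshiho-tang high (70.0 and 78.3 CPM). MCM6 had 131, 133 and 133 CPM in Zizyphi Semen high, 143, 138 and 137 CPM in Longan Arillus high and 149.7, 143 and 135 CPM in Liriopis seu Ophiopogonis Tuber high, against 155, 158 and 151 CPM in vehicle. It lay below vehicle in each, by -0.23 ± 0.04 on the log2 scale in Zizyphi Semen and by -0.15 and -0.12 in the others.

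RRM2 was called lower than vehicle in each of the 6 extracts. It had 265, 261 and 252 CPM in Zizyphi Semen high, 262, 267 and 253.5 CPM in Yijin-tang high and 263, 273 and 271 CPM in Schisandrae Fructus high, against 299, 306 and 291 CPM in vehicle. In these 3 extracts the log2 fold changes were -0.21, -0.20 and -0.15, each with an SE of 0.03, and no library reached the vehicle range. GINS2 had 44.7, 46.3 and 45.1 CPM in Yijin-tang high and 46.6, 44.5 and 44.3 CPM in Schisandrae Fructus high, against 51.01, 51.3 and 48.8 CPM in vehicle, again without overlap.

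The remaining leading genes differed by extract. TYMS, thymidylate synthase, had 109, 100.3 and 101 CPM in Zizyphi Semen high, against 119.6, 122.6 and 117 CPM in vehicle (-0.21 ± 0.04). GINS4 had 61.5, 58.7 and 54.3 CPM in Schisandrae Fructus high, against 62.3, 65.7 and 66.0 CPM in vehicle (-0.15 ± 0.05). MCM2 and UHRF1 led in Longan Arillus after TK1, FEN1 and MCM6. MCM2 had 112, 106 and 101 CPM in Longan Arillus high, against 116, 115 and 119 CPM in vehicle, and UHRF1 86.5, 79.3 and 80.5 CPM in Longan Arillus high, against 89.3, 89.8 and 93.1 CPM in vehicle. None of these groups overlapped vehicle. PCNA had 232, 231 and 217 CPM in Liriopis seu Ophiopogonis Tuber high, against 254, 255 and 259 CPM in vehicle (-0.17 ± 0.04). CCNE1 had 23.1, 24.6 and 22.6 CPM in Liriopis seu Ophiopogonis Tuber high, against 26.55, 27.2 and 26.55 CPM in vehicle (-0.19 ± 0.06), and in Yijin-tang high it had 24.3, 22.1 and 24.3 CPM (-0.18 ± 0.06). Neither gene overlapped vehicle in these extracts.

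These counts moved with single libraries by over 1.5 times. For Yijin-tang the count was 2 to 4 without vehicle replicate 1 or 2 or without any 1 of the Yijin-tang high replicates. It was 1 to 3 for Liriopis seu Ophiopogonis Tuber without any 1 vehicle replicate or its high replicate 3. It was 3 to 5 for Schisandrae Fructus without any 1 vehicle replicate or its high replicate 2, and 3 to 5 for Longan Arillus without vehicle replicate 1 or 3 or its high replicate 3. For Zizyphi Semen it stayed at 10 to 14.

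The low doses also had replication genes called lower than vehicle. Zizyphi Semen low had 13 genes lower and 1 higher (15.1% and 12.5% of all genes), Longan Arillus low 12 lower and 1 higher (14.4% and 11.7%), Schisandrae Fructus low 8 lower (4.22%, and 2.5% of all genes higher), Yijin-tang low 3 lower (2.26% and 1.51%) and Liriopis seu Ophiopogonis Tuber low 2 lower (2.45% and 1.61%). The counts with all 54 libraries were 0 for Zizyphi Semen low, Schisandrae Fructus low, Yijin-tang low and Liriopis seu Ophiopogonis Tuber low (2.58%, 0.196%, 0.0841% and 0.129% of all genes called lower, and 3.41% called higher for Zizyphi Semen), and 14 lower and 4 higher for Longan Arillus low (14.4% and 21.5%), where the fit includes its replicate 3. The mitochondrial share was 14.4% to 16.3% in Zizyphi Semen low and 16.1% and 16.4% in Longan Arillus low without replicate 3, against 11.5% to 11.8% in vehicle. For Longan Arillus, Zizyphi Semen and Schisandrae Fructus, the count of genes lower than vehicle was no larger at the high dose than at the low dose. The gene called higher in both was POLE, which had 190, 185 and 174 CPM in Zizyphi Semen low, against 166, 164 and 159 CPM in vehicle (0.16 ± 0.05, edgeR adjusted p = 0.0126). The count was 7 for Longan Arillus low without its replicate 2, 1 to 4 for Schisandrae Fructus low without any 1 library of either group, 0 or 1 for Yijin-tang low without any 1 library and 0 or 1 for Liriopis seu Ophiopogonis Tuber low without any 1 library.

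The high doses of Polygalae Radix and Aucklandiae Radix had 1 library each, so no test was made. For them, log2 ratios were taken after adding 1 CPM to both values, and genes past 1.5-fold were counted. In Polygalae Radix high, 15 of the 39 genes were past 1.5-fold lower than at the low dose and 1 was past it higher, beside 20.6% and 13.6% of all genes. The median over the 39 was -0.41 and over all genes -0.02. Against the vehicle mean the counts were 16 and 1 (21.8% and 15.6% of all genes).

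The whole MCM2 to MCM7 ring was lower in Polygalae Radix high, in step with dose. MCM6 had 134, 109 and 40.2 CPM at the low, medium and high dose, and MCM5 133, 103 and 41.7 CPM. The log2 ratios of high over low ranged from -1.06 for MCM7 to -1.71 for MCM6. The lowest ratio of the 39 was that of RRM1, which had 175, 114 and 48.2 CPM at the low, medium and high dose (-1.84). RRM2, the other subunit of the same enzyme, had 281, 310.1 and 297 CPM at the same doses and did not move past 1.5-fold. POLA1, the catalytic subunit of the priming polymerase, had 56.4, 37.9 and 18.2 CPM (-1.58), and TK1 105, 84.5 and 35.5 CPM (-1.54).

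Further genes past 1.5-fold lower in Polygalae Radix high were LIG1 (-0.94), PCNA (-0.88), UHRF1 (-0.77), TYMS (-0.75), RFC2 (-0.65) and GINS2 (-0.64). ORC6, the smallest origin recognition subunit, was higher, with 39.9, 46.3 and 71.3 CPM at the low, medium and high dose (0.82). The genes of S phase entry had higher values at the high dose than at the low dose but not past 1.5-fold: CCNE1 had 24.5, 25.9 and 31.65 CPM and E2F1 47.55, 49.6 and 56.7 CPM at the low, medium and high dose. MCM10, GINS1, GINS3, CDT1, POLE, POLE2, RFC3, RFC4, CHAF1A and RRM2 also had high-dose values above those of the low dose. Of the 39 genes, 25 had a log2 ratio of high over low below 0. At the medium dose only RRM1 was past 1.5-fold (-0.61), beside 1.49% of all genes lower and 0.447% higher, and at the low dose none of the 39 was past 1.5-fold of vehicle (1.35% and 1.85% of all genes).

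Polygalae Radix high differed widely from the other libraries. The sum of the 7 A549 and epithelial markers ran from 15580 CPM (low dose) through 10090 CPM (medium) to 2976 CPM (high), beside vehicle sums of 17410 to 17850 CPM. The fibroblast sum was 17.6 CPM at the high dose, against 39.55 CPM at the low dose. The leukocyte sum was 4.84 against 18.14 CPM and the endothelial sum 0.178 against 0.134 CPM. The mitosis list had a median of -0.77 relative to the vehicle mean, close to the -0.74 of Aucklandiae Radix high. The further S phase genes had a median of -0.14, against -0.33 in Aucklandiae Radix high. The part of these in the values of the replication genes was not tested.

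In Aucklandiae Radix high, nearly all replication genes had lower values than at the low dose. The log2 ratio of high over low was below 0 for 38 of 39 genes, with a median of -0.31 against 0.01 over all genes, and only CCNE1 was above it (0.14). Past 1.5-fold were 3 genes, all lower, beside 3.35% of all genes lower and 4.12% higher. These were RRM2, with 283, 289 and 183 CPM at the low, medium and high dose (-0.63), RFC3, a clamp loader subunit, with 54.2, 53.6 and 34.7 CPM (-0.63), and MCM7, with 290.0, 293 and 190.1 CPM (-0.61). The MCM ring spanned -0.20 for MCM6 to -0.61 for MCM7, whereas in Polygalae Radix MCM6 had the lowest and MCM7 the highest ratio of the 6. At the medium dose 0 of 39 genes were past 1.5-fold, beside 0.338% of all genes lower and 0.353% higher, and the median was 0.02. At the low dose, 0 of 39 were past 1.5-fold of vehicle (2.55% and 2.07% of all genes).

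Against the vehicle mean, 7 genes were past 1.5-fold lower in Aucklandiae Radix high, beside 4.9% of all genes lower and 5.62% higher, namely TK1 (-0.78), FEN1 (-0.74), RRM2 (-0.71), MCM7 (-0.70), CCNE2, RFC3 and RRM1 (each -0.67). The marker sums also moved there. The sum of the A549 and epithelial markers was 10690 CPM at the high dose, against 16090 CPM at the low dose. Within it ALDH1A1 had 3890 against 5610 CPM, AKR1B10 1010 against 2150 CPM and KRT7 1850 against 2120 CPM. Only CDH1 was higher at the high dose, with 44.9 against 34.5 CPM. The leukocyte sum was 30.6 CPM at the high dose, against 14.8 CPM at the low dose, of which CD68 made up 27.6 and 13.5 CPM, while CD3E and PTPRC were at 0 in both. Their part in the result was not tested.

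The profile over the genes was also set side by side for the 3 extracts with the largest changes. For Soshiho-tang the edgeR log2 fold change of high over low was used. For Polygalae Radix and Aucklandiae Radix it was the log2 ratio with 1 CPM added, so the measures are not the same. Over the 39 genes, the values of Soshiho-tang and Polygalae Radix, which share no libraries, had a Pearson correlation of -0.08 and a Spearman correlation of 0.03. For Soshiho-tang and Aucklandiae Radix the values were 0.34 and 0.37, and for Polygalae Radix and Aucklandiae Radix, whose libraries are of the same set, 0.13 and 0.12. RRM2, GINS1 and CCNE2 were at -0.39, -0.44 and -0.74 in Soshiho-tang and at 0.08, 0.31 and 0.16 in Polygalae Radix. RRM1, MCM5, POLA1 and LIG1 were at -0.01 to -0.18 in Soshiho-tang and at -0.94 to -1.84 in Polygalae Radix. This is a description, with no test of the difference, since Polygalae Radix has no replicate.

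The 2 libraries that stand apart held the extreme values of many of these genes. In Longan Arillus low replicate 3, E2F1 had 112 CPM, against 43.7 to 47.7 CPM in the other 8 Longan Arillus libraries, ORC6 76.6 against 35.9 to 38.1 CPM, ORC1 17.98 against 41.7 to 47.9 CPM and POLE 78.4 against 166 to 194 CPM. In Soshiho-tang medium replicate 3, POLE had 78.7 CPM, against 151 to 174 CPM in the other 5 Soshiho-tang libraries, and FEN1 144 against 70.0 to 93.3 CPM. Outside the range of the other libraries of the extract were 35 and 31 of the 39 genes. Over the 39 genes, the log2 ratio of these libraries to the others had a Pearson correlation with log2 exon length of -0.45 in Longan Arillus low replicate 3 and -0.74 in Soshiho-tang medium replicate 3.

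Of the 39 genes, 13 were called in none of the high-dose comparisons: CDC45, CDT1, CHAF1A, CHAF1B, GINS3, LIG1, MCM5, POLA1, POLA2, POLE, RFC2, RFC3 and RFC4. Their log2 fold changes of Soshiho-tang high over low ran from -0.11 to 0.12. Among them, MCM5, POLA1 and LIG1 nonetheless had log2 ratios of -0.94 to -1.66 in Polygalae Radix high over low. The genes of the set that overlap another annotated gene are MCM2, MCM7, GINS2, GINS3, GINS4, RFC4, RFC5, POLA2, PRIM1, POLD1, FEN1, LIG1, RRM1, RRM2, TYMS, CCNE2, CHAF1A and CHAF1B. As nothing in the sources used here gives the strand setting of the counting, reads of a neighbour cannot be told apart in them.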

How the data were processed

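The deposited table holds expected counts of 60675 gene identifiers in 60 libraries, which the authors made, per the submitters' processing notes, with FastQC 0.11.9, Trim Galore 0.6.5, STAR 2.7.3a and RSEM 1.3.3 on hg38. Of their order of use, annotation and strand setting nothing is given in the sources used here. Of the values, 10.485% were not whole, and all were rounded. Symbols came from a separate list of gene names, which named 56558 of the identifiers. Exon lengths, positions and overlaps came from GENCODE 29, which held 57055 of them.

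Genes were kept by edgeR's filterByExpr, scaled by TMM and tested across all genes with the quasi-likelihood F test (edgeR 4.0.16, limma 3.58.1, R 4.3.3), with group means of 51 libraries in 18 groups and p-values adjusted over 17646 genes. Comparisons within an extract were high against low dose and, except for Soshiho-tang, medium against low dose. The high and the low dose were each compared with vehicle, and the medium dose was not. Replicated extracts of the same set were compared at the high dose and in their change from low to high. Extracts with 1 library per dose were compared without a test, over genes of at least 1 CPM on average. The alternatives were DESeq2 1.42.0, RLE factors, no filter, all 54 libraries, the compared groups alone, a replicate block and leaving out each library. The fit was tried on simulated counts for Soshiho-tang high against vehicle (17295 genes). It recovered 52% of 50 genes changed 1.25-fold and 94% of 50 changed 1.5-fold, with 4 false calls. Only genes of higher counts were changed, and all groups otherwise had a common mean per gene, without a set effect. The false calls there therefore cannot speak for the real comparison with vehicle. The members and lists were chosen with earlier results of these data known. Library values are given for the 5 called genes of largest absolute log2 fold change in each comparison of the high dose, for the most abundant gene of each role and, without replicates, for up to 5 genes past 1.5-fold in order of dose, and from each further list the 3 called genes of largest change are named. Python 3.11.15, pandas 2.3.3 and matplotlib 3.10.9 were used for summaries and plots.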

Additional observations from a re-analysis of the deposited data

Results flagged for a closer look

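For 7 genes the change from the low to the high dose differed between Soshiho-tang and Yijin-tang, by edgeR's test of the difference itself with p-values adjusted over all genes. The log2 differences, Soshiho-tang minus Yijin-tang, were -0.44 for GINS1 (adjusted p = 0.0016), -0.37 for FEN1 (2.13e-05), -0.31 for RRM2 (2.13e-05), -0.29 for MCM10 (0.00392), -0.28 for MCM4 (5.52e-05), -0.25 for MCM6 (0.0073) and -0.19 for RRM1 (0.00656). The decoctions were of 1 set and shared no dose groups. With all 54 libraries none of the 7 was called.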

How the results depend on the processing

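The counts of the 39 genes called moved with the libraries in the fit, and the cause of the moves was not tested. The 54-library fit adds both libraries that stand apart and Soshiho-tang medium replicate 2. With all 54 libraries the count was 3 for Soshiho-tang high against low, 8 for Longan Arillus high against low, 9 for Longan Arillus medium against low, 11 for Soshiho-tang high against vehicle and 0 for Zizyphi Semen high against low, for the high doses of Yijin-tang, Zizyphi Semen, Longan Arillus, Schisandrae Fructus and Liriopis seu Ophiopogonis Tuber against vehicle, for the low doses of Soshiho-tang, Yijin-tang, Liriopis seu Ophiopogonis Tuber, Schisandrae Fructus and Zizyphi Semen against vehicle, for Soshiho-tang against Yijin-tang at the high dose and in change with dose, and for Schisandrae Fructus against Liriopis seu Ophiopogonis Tuber. The common dispersion was 0.0173 with 54 libraries and 0.00244 with 51. DESeq2 gave 6 for Yijin-tang low and 1 for Liriopis seu Ophiopogonis Tuber low against vehicle, and RLE factors gave 1 for Liriopis seu Ophiopogonis Tuber low. The compared groups alone gave 5 for Schisandrae Fructus high, 4 for Longan Arillus high, 7 for Soshiho-tang low, 12 for Yijin-tang low and 4 for Liriopis seu Ophiopogonis Tuber low against vehicle, and 0 for Schisandrae Fructus against Liriopis seu Ophiopogonis Tuber. No filter gave 4 for Yijin-tang high, 5 for Schisandrae Fructus high, 1 for Yijin-tang low, 1 for Liriopis seu Ophiopogonis Tuber low and 4 for Schisandrae Fructus low against vehicle, and 0 for Schisandrae Fructus against Liriopis seu Ophiopogonis Tuber.

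Not every same-numbered pair of libraries correlated above 0.1 (2 of 23 in set 8, 11 of 45 in set 9 and 23 of 40 in set 10), so the numbers were not taken as pairs. The median was -0.024 in set 8 and 0.025 in set 9. In set 10 it was 0.127, against -0.055 for other numbers, and 25 of 48 libraries were closest to their own number, a hint from the data and not the design. The replicate block within set gave 2 for Zizyphi Semen high against low and 6 for Yijin-tang low against vehicle, and the replicate block across all libraries gave 5 for the last. It gave 14 and 13 for Soshiho-tang high against low and 24 and 25 against vehicle.

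Leaving out each library gave 0 to 2 for Zizyphi Semen high against low. Against vehicle it gave 2 to 5 for Yijin-tang high, 1 to 7 for Liriopis seu Ophiopogonis Tuber high, 3 to 7 for Schisandrae Fructus high, 3 to 9 for Longan Arillus high, 0 to 3 for Soshiho-tang low, 0 to 1 for Yijin-tang low, 0 to 1 for Liriopis seu Ophiopogonis Tuber low, 1 to 4 for Schisandrae Fructus low and 7 to 12 for Longan Arillus low. It gave 0 to 1 for Schisandrae Fructus against Liriopis seu Ophiopogonis Tuber, 9 to 12 for Soshiho-tang high against low and 18 to 25 for it against vehicle. A lone remaining library was assumed to vary like the other groups. Of 36 calls of named genes, none reversed under any of these settings, and 34 held with DESeq2, 35 with RLE factors and 8 with all 54 libraries. Neither pseudocounts of 0.1 and 5 CPM nor RLE factors moved a count of the extracts without replicates by over 1.5 times, and 1 library per dose limits those values.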
